A study of Mus musculus with 6 samples.

Results

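The genes described here are 8 cell adhesion molecules of the immunoglobulin (Ig) family: Vcam1, Icam1, Alcam, Mcam, F11r, Jam2, Ncam1 and L1cam. Their probes were taken by symbol, as every mouse probe on the array whose gene name was one of these. The array held 20 probes for them (38 spots) of 41174 probes in all, and the 8 genes are 8 of 27670 named genes and transcripts. The samples were cultures of 4T1.2, a metastatic mouse mammary tumour cell line of BALB/c background. Both groups carried the pMSCV retroviral expression vector, either as the base vector or with Irf7, a transcription factor that switches on type I interferon and antiviral genes. In both groups the cells were selected with puromycin, cloned from single cells and pooled from several clones, so each group is 1 pooled population. Each group had 3 single-colour arrays, which the design text assigns to separate experiments, and basal expression was measured, with no added agent. The p-values below therefore measure the spread between cultures of 1 population per group. The series' title concerns Irf7 in bone metastasis and immune escape, and the comparison asks how IRF7-expressing cells differ from base-vector cells.

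Proteins of this family carry Ig domains outside the cell and, in most cases, a single membrane span and a short tail that is linked to the actin or membrane skeleton. Some hold cells to each other by binding a copy of themselves on the next cell, and others are counter-receptors for integrins on leukocytes. In inflamed endothelium, and in tumour cells that carry them, Vcam1 and Icam1 are known for binding leukocyte integrins, and their genes are textbook targets of NF-kB and of inflammatory cytokines.

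The measured letters on this array are DNA probes of 60 bases, and a gene's value is the brightness of its probe. The probes shown here carry the results that follow, 5′ to 3′ on the transcript's strand, with positions on mouse build mm7 as the files give them. The first group holds the second probes of Vcam1, Icam1 and Mcam, which measured those transcripts at another place than the brightest probe did.
Vcam1 A_52_P520495, chr3:115900948-115901007, minus strand: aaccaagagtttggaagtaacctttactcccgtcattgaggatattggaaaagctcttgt
Icam1 A_52_P613241, chr9:20904404-20904463, plus strand: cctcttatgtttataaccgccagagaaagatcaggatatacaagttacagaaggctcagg
Mcam A_52_P268206, chr9:44074728-44074787, plus strand: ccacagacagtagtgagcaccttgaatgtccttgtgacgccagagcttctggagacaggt

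The second group holds the brightest probes of Alcam and L1cam and a pair for Ncam1, shown because these were the genes with higher signal in the IRF7 cells or with probes that read differently. Alcam's 60 bases span 1878 bases of the genome, so the probe is split between exons. The first Ncam1 probe was designed on a record of the 3′ end of the transmembrane isoforms, and the second on a record of exon pi with its neighbours, an alternative exon of this gene.
Alcam A_51_P359272, chr16:52100907-52102784, minus strand: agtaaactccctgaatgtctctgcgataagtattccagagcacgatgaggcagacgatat
L1cam A_51_P139410, chrX:69241688-69241747, minus strand: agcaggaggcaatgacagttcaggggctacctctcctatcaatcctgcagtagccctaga
Ncam1 A_51_P347103, chr9:49482551-49482610, minus strand: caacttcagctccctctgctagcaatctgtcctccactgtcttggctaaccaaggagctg
Ncam1 A_52_P37077, chr9:49525769-49525828, minus strand: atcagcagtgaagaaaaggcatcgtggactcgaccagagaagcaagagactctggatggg

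For the brightest probes of Vcam1, Icam1, Mcam and F11r, only the last 30 bases are given, enough to identify each. The capitals in the Icam1 probe mark AATAAA, the letters of the polyadenylation signal; the match is a description of the letters.
Vcam1 A_51_P210956, chr3:115885211-115885270, minus strand: cactgggttgactttcaggtactactttct
Icam1 A_51_P408506, chr9:20905300-20905359, plus strand: agaaacctttcctttgaatcAATAAAgttt
Mcam A_51_P268439, chr9:44076783-44076842, plus strand: ggattaggcttataggaatgttagtaccaa
F11r A_51_P458866, chr1:171433810-171433869, plus strand: cgcacggaccctttgaagatatgtgtggat

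The IRF7 cells had less Vcam1, Mcam and Icam1 signal and more Alcam, L1cam, F11r and Ncam1 signal than the base-vector cells, and Jam2 was not measured above background on enough arrays to be tested. Vcam1 was 2.90-fold lower, Mcam 2.08-fold lower and Icam1 1.60-fold lower. Alcam was 2.36-fold higher, L1cam 1.69-fold higher, F11r 1.27-fold higher and Ncam1 1.21-fold higher. The L1cam and Ncam1 calls did not hold within the slide that carried both groups, as given below.

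These values come from limma's test over all genes with Benjamini-Hochberg adjustment at a threshold of 0.05, on a log2 level that is log2 of the processed signal minus the array's 75th percentile. A change is the IRF7 mean minus the base-vector mean of that level. A gene was tested if a probe of it was well above the local background, as the scanner software judged it, on at least 3 of 6 arrays, and the brightest such probe stands for the gene. Of the 8 genes 7 were tested, and all 7 passed, 4 higher and 3 lower. Among all 15413 tested genes 61.2% passed, 32.2% higher and 29.0% lower, so passing the threshold does not mark these genes out. The groups did not overlap in any of the 7 genes, against 68.0% of all tested genes. A change of at least 2-fold was less frequent over the array, at 5.86% of tested genes, and 3 of the 7 had one. Of these, Vcam1 and Mcam were lower (background 2.55%) and Alcam was higher (background 3.31%). The median log2 change of the 7 was 0.27 against 0.03 for all tested genes, and the median absolute change was 0.75 against 0.24. These genes and the lists below were chosen with earlier results of these data known. Contrasts with all tested genes therefore describe the choice and are not a test of it.

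**Figure D1:**
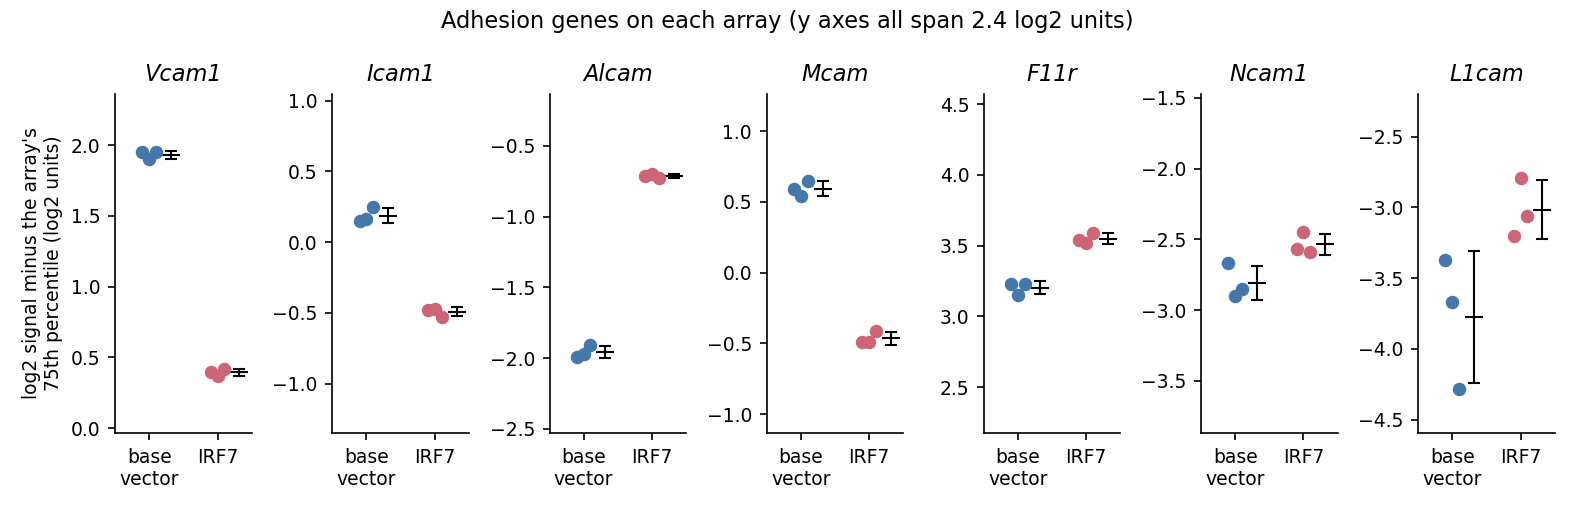
Each point is 1 array; the y axis is log2 of the processed signal minus the array's 75th percentile, in log2 units, with base-vector arrays in blue and IRF7 arrays in red, and the bar is the mean ± SD of 3 arrays. The axes all span the same height but start at different levels, because levels of different probes cannot be compared; Vcam1, Icam1 and Mcam lie lower in the IRF7 cells, the other genes higher, and L1cam has the widest spread.

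Of mouse spots, 54.3% to 56.8% were well above background on the base-vector arrays and 56.8% to 59.7% on the IRF7 arrays. The 75th percentile of the signal was 1099.7 to 1236.4 and 1238.4 to 1395.3 in the same order. Base-vector replicates 2 and 3, the arrays on slide 2, were lowest in both measures. Arrays of a group correlated at 0.995 to 0.997 over the tested genes. The probe of Irf7 itself, the check of the labels, read 195 to 246 in cells with the base vector and 4486 to 5012 in cells with IRF7, a log2 change of 4.28 (SE 0.049, limma adjusted p = 2.95e-07). Slide 1, scanned as scan 1, carried the 3 IRF7 arrays and base-vector replicate 1, while slide 2 (scan 2) carried the other base-vector arrays. Both groups were thus present on slide 1 alone. Within it 48.7% of genes passed, and with slide as a fixed block 46.5%. Of the genes called over all 6 arrays 52.6% were higher. Without scaling between arrays that share was 79.1% and the median change of all genes 0.23, so small changes depend on the scaling.

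Vcam1, the counter-receptor for integrin α4β1, read 4786, 4112 and 4340 in processed signal with the base vector and 1637, 1720 and 1873 with IRF7. Every base-vector array was above every IRF7 array by a wide margin, and the spread within each group was small. The levels were 1.93 ± 0.03 (SD, n = 3) and 0.40 ± 0.03 (SD, n = 3), a log2 change of -1.54 (SE 0.031, 95% interval -1.61 to -1.46, limma adjusted p = 1.65e-06). Of all tested genes, 2.52% had a larger absolute change. The second Vcam1 probe, printed in full above, read 187, 165 and 168 in the base-vector cells and 60.2, 74.2 and 124 in the IRF7 cells. It too was lower in every IRF7 array, with IRF7 replicate 3 nearest to the base-vector arrays. Its log2 change was -1.27 (SE 0.22, limma adjusted p = 0.00414 in the fit over 23517 probes), and on slide 1 alone it was -1.28 (limma adjusted p = 0.0631). A further Vcam1 probe, A_52_P462332, designed on a cDNA clone, read 5.67 to 6.91 and was above background on no array. Its position, chr3:115891967-115892026, lies between the other probes of the gene.

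Icam1, the counter-receptor for the leukocyte integrins that contain the β2 chain, was measured with 10 spots of 1 probe on each array. The means of those spots were 1377, 1230 and 1334 in the base-vector cells and 890, 963 and 964 in the IRF7 cells. All arrays of the base vector were again above all IRF7 arrays. Single spots ranged from 1161 to 1461 over the 30 base-vector spots and from 856 to 1054 over the 30 IRF7 spots, so not even single spots overlapped. Spots of 1 array are repeats of 1 sample and were averaged before the test. The coefficient of variation among the spots of an array was 2.71% to 5.38%. That is the spread of single spots within 1 array, while an Icam1 value is the mean of 10 spots. The levels were 0.19 ± 0.05 (SD, n = 3) and -0.49 ± 0.03 (SD, n = 3), a log2 change of -0.68 (SE 0.038, 95% interval -0.78 to -0.59, limma adjusted p = 4.29e-05). With 12.7% of genes changing more, this was a moderate change on this array. The second Icam1 probe read 144, 113 and 129 in the base-vector cells and 78.1, 74.0 and 120 in the IRF7 cells. In signal, IRF7 replicate 3 lay above base-vector replicate 2, and after scaling the groups did not overlap. Its log2 change was -0.73 (SE 0.17, limma adjusted p = 0.0117 over probes), and -0.80 on slide 1 alone, where it did not pass (limma adjusted p = 0.0875).

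**Figure D2:**
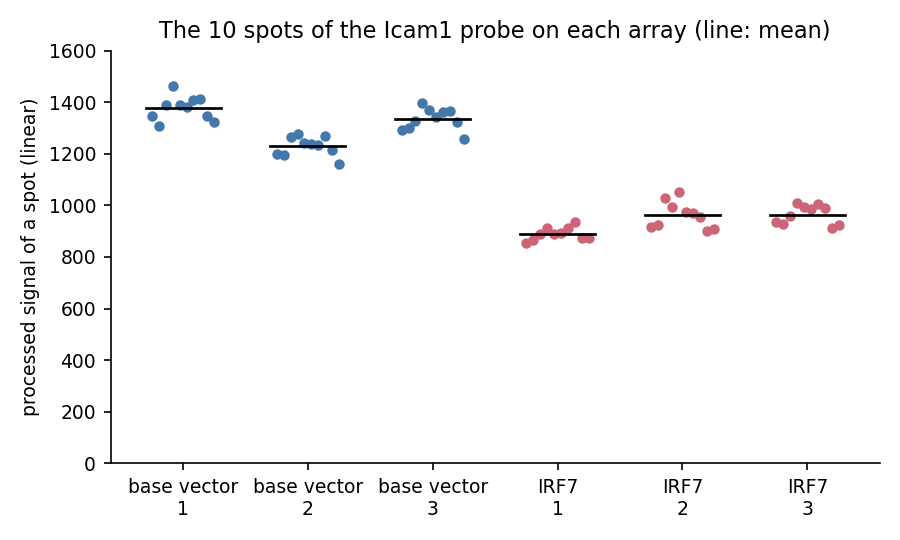
Each point is 1 spot of the Icam1 probe, 10 on each array; the y axis is the processed signal on a linear scale from 0, the x axis the array, and the line the mean of the array's spots. Base-vector spots (blue) lie between 1161 and 1461 and IRF7 spots (red) between 856 and 1054.

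The promoter of Icam1 is shown because the gene is a textbook NF-kB and STAT target. Genes of NF-kB and of cytokine sensing are described further on. The letters are the 250 bases before the RefSeq start of the gene on GRCm38.p6, another build than the array's, with matches to the motifs in capitals.
Icam1 promoter, GRCm38.p6, chr9:21015690-21015939, plus strand: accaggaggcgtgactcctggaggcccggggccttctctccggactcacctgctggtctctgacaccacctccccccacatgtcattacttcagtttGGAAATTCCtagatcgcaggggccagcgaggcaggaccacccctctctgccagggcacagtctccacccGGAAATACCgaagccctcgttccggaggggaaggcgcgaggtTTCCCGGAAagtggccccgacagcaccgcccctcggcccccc
The first capitals match the NF-kB motif GGAAATTCC, whose first base is 153 bases before the start. The looser NF-kB motif GGNNTTTCC matched at the same place and at the second capitals, 84 bases before the start, both on the opposite strand. The third capitals match the STAT motif TTCCNNGAA, 42 bases before the start. Both strands were searched. Over 32851 promoters of the table, 0.286% hold GGAAATTCC, 4.93% hold GGNNTTTCC and 4.06% hold TTCCNNGAA. The core of the interferon-stimulated response element, written as GAAANNGAA (7.13% of promoters), was not among these letters. The promoters of Alcam, Mcam, F11r and L1cam held none of the 4 motifs, and those of Vcam1, Jam2 and Ncam1 were not used here.

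Alcam and Mcam are cell surface molecules that are known from tumour cells, leukocytes and endothelium. Alcam binds itself and the T cell protein Cd6. Its probe read 312, 281 and 300 in the base-vector cells and 759, 820 and 842 in the IRF7 cells. All 3 IRF7 arrays were above all base-vector arrays, and both groups were tight. The levels were -1.95 ± 0.04 (SD, n = 3) and -0.71 ± 0.01 (SD, n = 3), a log2 change of 1.24 (SE 0.032, 95% interval 1.16 to 1.32, limma adjusted p = 3.67e-06). Alcam was the only one of the 8 that passed at 2-fold or more in the upward direction, and 3.98% of tested genes had a larger absolute change. It was measured with 1 probe.

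Mcam, a receptor for laminin α4 and for itself that is known from melanoma, moved the other way. The probe read 1864, 1594 and 1766 in the base-vector cells and 882, 953 and 1052 in the IRF7 cells. No IRF7 array came near a base-vector array. The levels were 0.59 ± 0.06 (SD, n = 3) and -0.46 ± 0.05 (SD, n = 3), a log2 change of -1.05 (SE 0.043, 95% interval -1.16 to -0.95, limma adjusted p = 1.50e-05). Its second probe, which lies upstream in the gene, read 146, 149 and 126 against 52.6, 65.2 and 73.4. Both probes thus separated the groups, and the second gave a log2 change of -1.35 (SE 0.10, limma adjusted p = 0.00017 over probes). Of all tested genes 5.51% had a larger absolute change than the brighter Mcam probe.

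F11r and Jam2 encode junctional adhesion molecules A and B, which sit at tight junctions of epithelium and endothelium. F11r read 11624, 9749 and 10530 in the base-vector cells and 14364, 15330 and 16828 in the IRF7 cells. Every IRF7 array was brighter. After scaling the difference was small, with levels of 3.20 ± 0.05 (SD, n = 3) and 3.55 ± 0.04 (SD, n = 3) and a log2 change of 0.35 (SE 0.038, 95% interval 0.25 to 0.44, limma adjusted p = 0.000555). Of all tested genes, 34.9% had a larger absolute change. Jam2 was not tested. Its probe A_51_P418375 (chr16:84819851-84821394) read 6.86 and 6.60 on base-vector replicates 1 and 2 and 23.3, 29.1 and 6.42 on the IRF7 arrays. Only IRF7 replicate 2 was above background. The spot of base-vector replicate 3 read 184 and was above background, but the scanner software marked it as an outlier and it was left out. The other Jam2 probe, A_52_P374846 (chr16:84823058-84823117), read 6.20 to 7.54 and was above background on no array.

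Ncam1 and L1cam are best known from neurons and glia, where they guide axons and bundle nerve fibres, and both occur in some carcinomas. L1cam, which binds itself and integrins, read 120, 86.5 and 57.8 in the base-vector cells and 135, 193 and 167 in the IRF7 cells. The groups did not overlap, but the base-vector arrays covered a wide range, and base-vector replicate 1, the one on the slide of the IRF7 arrays, was the nearest to them. The levels were -3.77 ± 0.47 (SD, n = 3) and -3.02 ± 0.21 (SD, n = 3), a log2 change of 0.75 (SE 0.25, 95% interval 0.13 to 1.38, limma adjusted p = 0.0427). On slide 1 alone the change was 0.35 (limma adjusted p = 0.184). Leaving out base-vector replicate 2 (0.81, limma adjusted p = 0.0793), IRF7 replicate 1 (0.84, limma adjusted p = 0.0686), IRF7 replicate 2 (0.64, limma adjusted p = 0.118) or IRF7 replicate 3 (0.78, limma adjusted p = 0.0933) also ended the call. For L1cam the data therefore gave a direction over all 3 arrays of each group and a size that was not settled. Base-vector replicates 2 and 3 were on slide 2, which held no IRF7 array, so for them group and slide cannot be told apart.

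Ncam1, which binds itself on other cells and carries polysialic acid in its plastic forms, was measured by 8 probes, of which 1 was above background on all 6 arrays. That probe, for the 3′ end of the transmembrane isoforms, read 195, 147 and 156 in the base-vector cells and 209, 245 and 232 in the IRF7 cells. The groups did not overlap, with base-vector replicate 1 again the nearest to the IRF7 arrays. The levels were -2.81 ± 0.12 (SD, n = 3) and -2.53 ± 0.08 (SD, n = 3), a log2 change of 0.27 (SE 0.075, 95% interval 0.09 to 0.46, limma adjusted p = 0.0224). Of all tested genes 45.3% changed more. On slide 1 alone the change was 0.13 (limma adjusted p = 0.221). Leaving out base-vector replicate 2 (0.22, limma adjusted p = 0.061), base-vector replicate 3 (0.25, limma adjusted p = 0.0664), IRF7 replicate 1 (0.29, limma adjusted p = 0.0521) or IRF7 replicate 2 (0.23, limma adjusted p = 0.0668) also ended the call.

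The other 7 Ncam1 probes were not tested, and 4 of them were above background on no array. The probe on the exon pi record, printed above, read 10.7, 25.5 and 8.46 in the base-vector cells and 18.0, 39.5 and 81.6 in the IRF7 cells. It was above background on IRF7 replicates 2 and 3 only, and its ratio against the lowest level counted as signal was at least 1.03-fold higher, which gives next to no size. Probe A_52_P382754 (chr9:49492741-49492800) read 41.7, 14.8 and 22.7 against 15.2, 19.4 and 40.3, above background on 1 array of each group. Probe A_52_P613255 (chr9:49480360-49480419), on the same record as the brightest probe, read 24.9, 7.71 and 8.77 against 30.1, 41.1 and 26.7, above background on IRF7 replicate 2 only. Probe A_51_P380309, also on that record, read 7.69 to 22.5 over both groups and was above background on no array. A probe with 10 spots on each array, A_52_P291924 (chr9:49521434-49521493), had spots of 5.93 to 27.6 in both groups, none of them above background among those kept. Among the Ncam1 probes, then, a change was measured at 1 place in the gene.

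**Figure D3:**
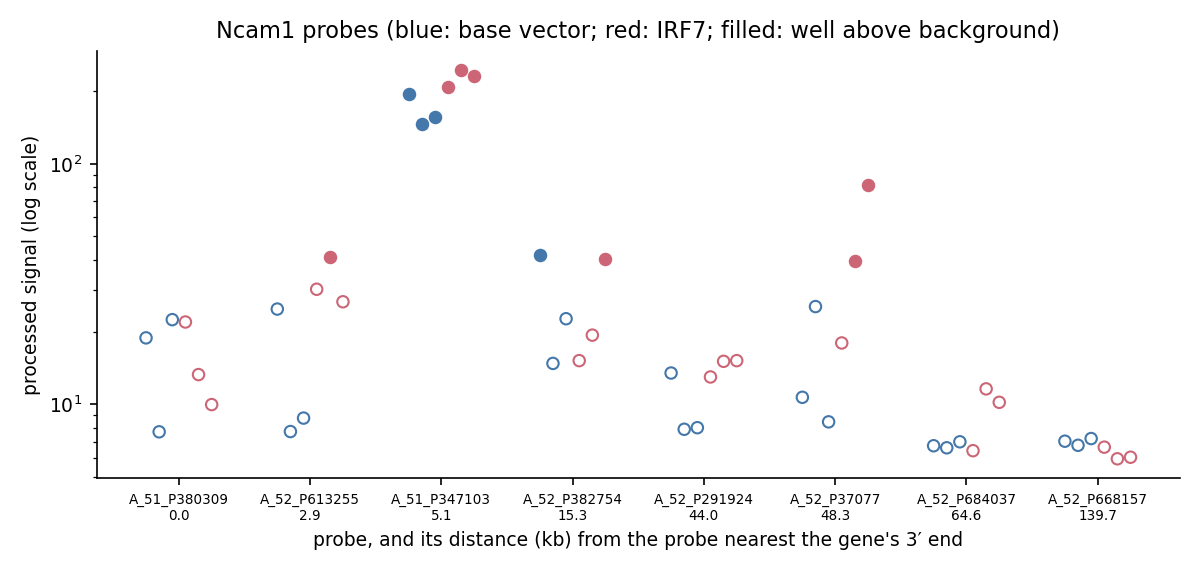
Each point is 1 probe on 1 array; the y axis is the processed signal on a log scale, and the x axis lists the 8 Ncam1 probes in order of their distance in kb from the probe nearest the 3′ end (blue for base vector, red for IRF7, filled where well above background). Only A_51_P347103 is filled on all 6 arrays, and heights of different probes cannot be compared.

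**Figure D4:**
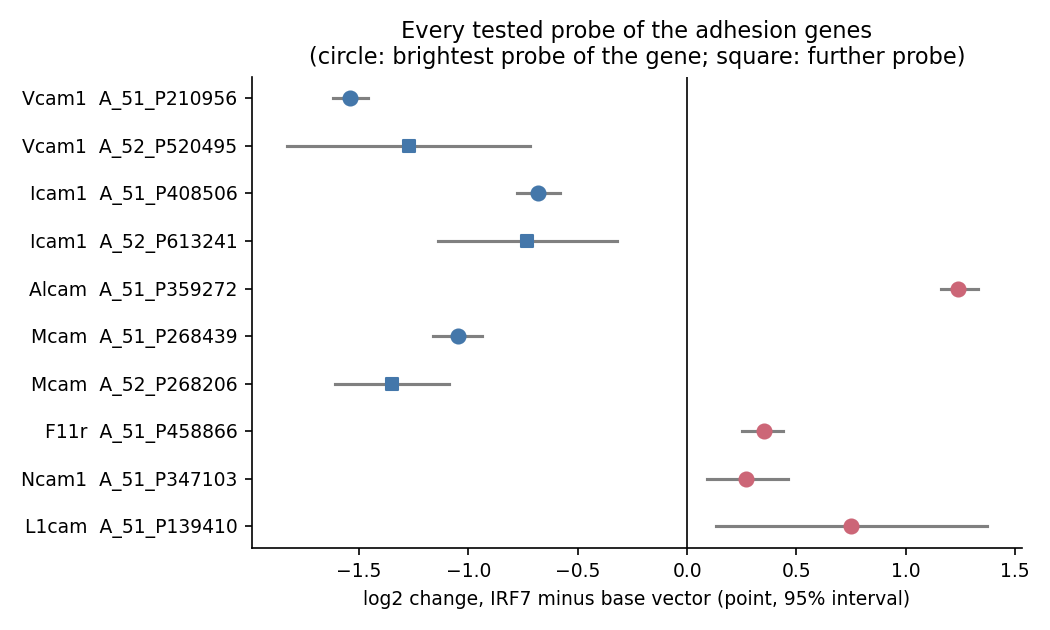
Points are the log2 change, IRF7 minus base vector, of the 10 tested probes of the adhesion genes, with 95% intervals from the fit over all probes; circles are the brightest probe of a gene and squares a further probe. The further probes of Vcam1, Icam1 and Mcam lie on the same side of 0 as the brightest ones, with wider intervals.

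The 10 tested probes of these genes all passed in the fit over probes (background 58.8%), 4 higher (30.8%) and 6 lower (28.0%). Where a gene had a second tested probe, which was so for Vcam1, Icam1 and Mcam, both had the same direction. The direction of each of the 7 tested genes was the same in all 18 alternatives of the processing. The calls of Vcam1, Icam1, Alcam, Mcam and F11r also held in each of them.

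The levels of other cell types' markers were set beside these changes, because endothelium and leukocytes between them also carry Vcam1, Icam1, Alcam, Mcam and F11r, and fibroblasts can carry Vcam1. In bulk RNA, fewer cells of a type and less RNA per cell cannot be told apart. The sums below add processed signal that was not scaled between arrays, so they also carry array brightness, and the brightest probes lead them. The array's 75th percentile was 1099.7 to 1236.4 in the base-vector cells and 1238.4 to 1395.3 in the IRF7 cells. On the scaled level Krt18, the brightest epithelial marker, changed by -0.06 (limma adjusted p = 0.311) and Krt8 by 0.15. The keratins Krt8 and Krt18 of simple epithelium were bright on all arrays (141895 to 308495), while Krt19 was above background on none. The summed signal of 8 epithelial markers was 391317 to 453018 in the base-vector cells and 508634 to 563616 in the IRF7 cells, and 3 of the 7 tested passed, all higher, among them Krt7 (6.18-fold) and Epcam (2.29-fold). Of 7 endothelial markers, Pecam1, Kdr, Emcn and Vwf were above background on no array and Tek on 2 IRF7 arrays. The tested ones, Tie1 (1.57) and Cdh5 (1.06), were higher in the IRF7 cells, and the sum was 344 to 383 against 923 to 1044. Of 7 leukocyte markers, Itgam was above background on no array and Ptprc on 1. Of the 5 that were tested, Cd14 alone passed (0.38), and the sum was 2807 to 3241 against 3860 to 4498. Of 6 fibroblast markers, Col1a1, Lum and Thy1 were above background on no array, while Pdgfra (-1.21) and Pdgfrb (at least 2.84-fold lower) fell, with a sum of 6434 to 7257 against 3151 to 3608. Of 6 neural and Schwann cell markers 5 were tested and 2 passed, both higher, among them S100b (0.88), with a sum of 557 to 664 against 740 to 889. The samples were cultures of the cloned and pooled tumour line, and the labels name no other cell type. Whether the marker changes bear on the adhesion gene changes was not tested.

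Other Ig-family adhesion genes moved in both directions, as the 7 tested genes above did. The list held 26 genes, of which 15 were tested: 5 rose, 7 fell and 3 did not pass, so 80.0% passed against 61.2% of all genes. Cadm1 met the filter through the IRF7 arrays alone. With signal required on all 6 arrays, 13 were tested, and 3 rose and 7 fell. The median log2 change of the 15 was -0.04, with Cadm1, which was dim in 1 group, at its fitted value or at its bound. Nrcam, a neural relative of L1cam, read 121, 91.8 and 103 against 366, 403 and 418. It rose by 1.72 on the log2 scale (SE 0.061, limma adjusted p = 9.21e-06), and its second probe by 1.39. Nectin1, an adherens junction molecule, read 2422 to 2893 against 6447 to 7252 and rose by 1.14. Cadm1 was above background in the IRF7 cells only, at 43.9, 46.9 and 50.8 against 8.45, 6.48 and 6.88, and was at least 1.25-fold higher. The lowest signal counted as above background sets that bound. Bcam, the Lutheran laminin receptor and a close relative of Mcam, fell by 1.48 (450, 428 and 405 against 160, 170 and 198). Nectin2 fell by 0.97, and its second probe by 1.25. Of the 7 that fell, 3 lie on chromosome 7 (Bcam, Nectin2 and Cadm4), where the median change of 1136 tested genes was -0.38. Pvr, on the same chromosome, rose by 0.54. None of the 8 described genes lies there: 3 are on chromosome 9, whose median was 0.06. Pecam1, Icam4, Madcam1 and Ceacam1 were among the 10 above background on no array.

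The extracellular partners of the 8 proteins are integrins, laminins, galectins and growth factor receptors. Of 15 such genes 10 were tested, and 5 rose, 2 fell and 3 did not pass (70.0% passed, median 0.12). With the median of each array as the scale, 3 rose and 1 fell. Lama4, the laminin chain that Mcam binds, had the largest change among these lists, with 1819, 1724 and 1706 in the base-vector cells and 113, 146 and 144 in the IRF7 cells. It was 15.0-fold lower (log2 change -3.91, SE 0.074, limma adjusted p = 1.38e-06), and its other tested probes changed by -4.33 and -4.04. The laminin chain and its receptor Mcam thus were both lower in the IRF7 cells. Among integrins, Itgb7, which pairs with α4, rose by 0.73, and Itgb2, the β2 chain of the Icam1 receptors, by 0.33 (11748 to 13295 against 15779 to 19770). Itgal, the α chain of the main Icam1 receptor, rose by 0.29, a call that ended with normexp background correction (0.12, limma adjusted p = 0.0521) and with median scaling (0.25, limma adjusted p = 0.0687). Itgam and Itgax, which pair with the same β2 chain, were above background on no array. Itga4, the Vcam1-binding chain, changed by -0.17 (limma adjusted p = 0.0112), and by 0.03 without scaling between arrays. The galectin Lgals3, which binds glycans on many adhesion molecules, rose by 0.78. Cd6, the partner of Alcam, read 91.7 to 115 against 98.1 to 122 and did not pass (limma adjusted p = 0.471).

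The cytoplasmic linkers join tails of these proteins to the cytoskeleton or to junction scaffolds. Of 14 genes 12 were tested, and 7 rose, 4 fell and 1 did not pass (91.7% passed, median 0.22). Every one of these changes was below 2-fold. Tjp1, the tight junction scaffold ZO-1 that binds F11r, fell by 0.63 (1956, 1611 and 1815 against 1193, 1369 and 1433), while Mpdz, another junction scaffold, rose by 0.60. Ank3, an ankyrin of the family that anchors L1cam, rose by 0.60, and Msn, the moesin that binds Icam and Vcam1 tails, rose by 0.56. Fyn, a kinase downstream of Ncam1, fell by 0.59. Without scaling between arrays the list gave 8 higher and 2 lower.

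Sheddases and glycan enzymes act on the proteins after synthesis. Of 7 genes 5 were tested, and 2 rose, 1 fell and 2 did not pass (60.0% passed, median 0.07, the same with St8sia4 at its bound). St8sia4, a polysialyltransferase that modifies Ncam1, was above background in the base-vector cells only. It read 70.6, 48.8 and 140 there and 17.7, 13.1 and 11.3 in the IRF7 cells, at least 3.07-fold lower. The other polysialyltransferase, St8sia2, was above background on no array. Of the proteases, Bace1 rose by 0.49 and Adam17, which sheds Vcam1 and L1cam among others, by 0.38. Adam10 (log2 change -0.14, limma adjusted p = 0.277) and Adam8 (0.07, limma adjusted p = 0.335) did not pass.

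**Figure D5:**
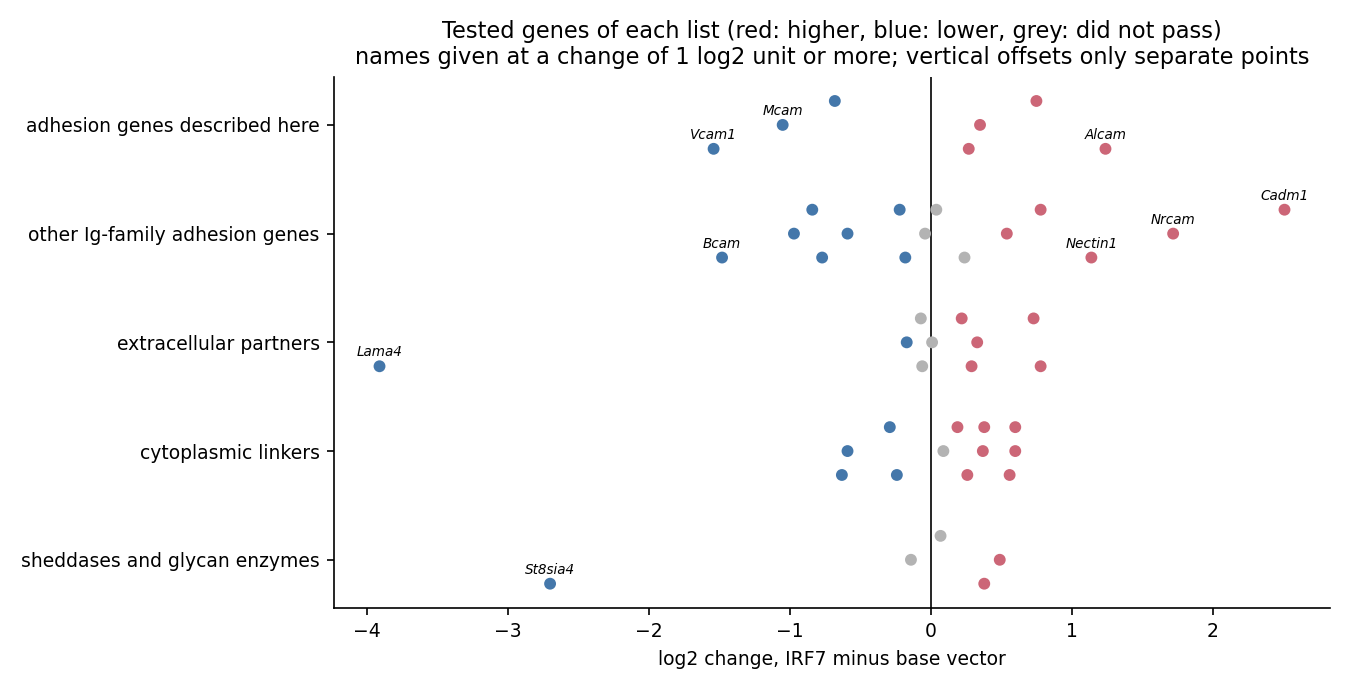
Each point is a tested gene; the x axis is its log2 change, IRF7 minus base vector, and rows are the adhesion genes and 4 lists of relatives and partners (red higher, blue lower, grey did not pass). Named points changed by 1 log2 unit or more; Cadm1 and St8sia4 were dim in 1 group, so their fitted positions are not sizes.

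Genes of the inputs known to drive Vcam1 and Icam1 changed in both directions. Of 15 genes of NF-kB and of cytokine sensing 14 were tested, and 7 rose, 3 fell and 4 did not pass (71.4% passed, median 0.10). Tnfaip3, an NF-kB target that restrains the pathway, rose by 0.40, and the TNF receptor gene Tnfrsf1b by 0.25. Irf1, a cytokine-induced factor that acts on Vcam1, fell by 0.40, and its second probe by 0.70. Il1r1, the receptor of interleukin 1, fell by 0.33. The NF-kB subunit Rela changed by 0.10 (limma adjusted p = 0.0411) and Nfkb2 by 0.00, while Rel was above background on no array. These small changes move with the processing: 2 rose and 2 fell with the median of each array as the scale, and 3 rose and 3 fell with slide as a fixed block. Without scaling, 8 of the list were higher and none lower, and in that fit neither Irf1 (-0.21, limma adjusted p = 0.0947) nor Il1r1 (-0.13, limma adjusted p = 0.307) passed.

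Vcam1 had the largest absolute change of the tested adhesion genes, and the genes with the most similar pattern over the 6 arrays were found by the root mean square difference of log2 levels after each gene was centred. The 5 nearest were Denn2b (0.030), Dbp (0.033), Rdm1 (0.033), Tmem86a (0.034) and Rpl22l1 (0.037), all in log2 units. Dbp, a circadian transcription factor, read 2779, 2492 and 2582 against 934, 999 and 1063. The measure finds genes with a fall of the size of Vcam1's and small spread, and with 3 arrays a group it carries little else. Denn2b, Dbp and Tmem86a lie on chromosome 7, and Rpl22l1 on chromosome 3, as Vcam1 does.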

How the data were processed

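Total RNA of 6 cultures was labelled with Cy3 and hybridised to single-colour Agilent arrays, 3 per group. The members and lists were chosen with earlier results of these data known. Agilent Feature Extraction 9.5.3.1 is the scanner software in the submitters' processing notes. The deposited processed signal is, per the file headers, a linear intensity per spot, corrected for background and not scaled between arrays, and the deposited value table held the same numbers.

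Each array held 45018 spots, of which 1639 were controls and 111 to 121 were marked as outliers; all of these were left out. Averaging repeated spots left 41174 probes. Names came from RefSeq's gene table (GRCm38.p6, names and promoter letters only) for 22944 probes by accession, 6664 by symbol and 3108 by older symbol, and 8458 kept the deposited name; every name of the 8 genes was the same in both. Coordinates are the files' own, on mm7, and exon and UTR annotation of that build was not used here. The level was log2 of the processed signal minus the array's 75th percentile. A probe needed signal well above background on 3 or more of the 6 arrays, and the brightest stood for its gene. Groups were compared over all 6 arrays with limma 3.58.1 in R 4.3.3 (lmFit and eBayes, 4 residual and 1.63 prior degrees of freedom), adjusted by Benjamini-Hochberg over 15413 genes, or over 23517 probes for further probes. The script was tested on simulated data. Python 3.11.15, pandas 2.3.3 and matplotlib 3.10.9 made the tables and plots. A probe dim on every array of 1 group is given as a bound, from the mean of the bright group and, per array of the dim group, the higher of the lowest signal above background and the probe's own.

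Besides the 8 genes and Irf7, the genes named are up to 5 with the largest passing change from each list, those with signal in 1 group only and the 5 most like Vcam1; Cd6, Itga4, Itgam, Itgax, Adam8, Adam10, St8sia2, Cadm4, Pvr, Rela, Nfkb2, Rel, untested genes named as such and the markers are outside that rule and were named for their known roles or place, after their values were seen. Of the genes this rule chose, 1 is not reported here, though it counts in its list. Alternatives were normexp background correction (offset 50), quantile, median or no scaling, no filter or signal on all 6 arrays, the mean of a gene's probes, a block for the slide (fixed or random) or for the replicate number, slide 1 alone, robust eBayes with a trend, and each array left out in turn. Deviations from the group means correlated at 0.05, 0.18 and 0.23 between same-numbered arrays, against -0.18 to 0 between the others. The numbers were not taken as pairs in the main fit, and the replicate block stands as the alternative that does so.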

Additional observations from a re-analysis of the deposited data

Results flagged for a closer look

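Signal outside the tested probes appeared in 3 probes that were above background on IRF7 arrays and on no base-vector array used. The Ncam1 probe A_52_P37077, on the exon pi record, reached 81.6 on IRF7 replicate 3 and 39.5 on replicate 2, against at most 25.5 in the base-vector cells. The Ncam1 probe A_52_P613255 reached 41.1 on IRF7 replicate 2, against at most 24.9. The Jam2 probe A_51_P418375 reached 29.1 on IRF7 replicate 2, against 6.60 and 6.86, but the base-vector spot that was left out as an outlier read 184. In the fit without the filter on dim probes the 3 probes had limma adjusted p = 0.159, limma adjusted p = 0.0756 and limma adjusted p = 0.313 in this order, the last with base-vector replicate 3 dropped.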

How the results depend on the processing

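In 126 refits of the 7 tested genes (18 alternatives each), 110 gave the same direction and call, 16 lost the call and 0 reversed. All 16 were Ncam1 or L1cam. The number of genes called over the array was 9432. It fell to 6206 with the median of each array as the scale and rose to 14498 of 27670 with no filter on dim probes, and was 8312 to 9078 with 1 array left out. The 3 lower adhesion genes passed in all alternatives. The count of higher ones fell from 4 to 2 with slide as a fixed block, on slide 1 alone and with the replicate block, and was 2 to 4 with 1 array left out. For Ncam1, the change was 0.24 by median scaling (limma adjusted p = 0.0749), 0.13 with slide as a fixed block (limma adjusted p = 0.2), 0.13 on slide 1 alone and 0.27 with the replicate block (limma adjusted p = 0.0543), and 0.22 to 0.34 with 1 array left out. For L1cam it was 0.75 without the filter (limma adjusted p = 0.0631), 0.35 with slide as a fixed block (limma adjusted p = 0.36), 0.35 on slide 1 alone and 0.75 with the replicate block (limma adjusted p = 0.0607), and 0.50 to 0.96 with 1 array left out. The cause was not tested. The fits by slide take the change from base-vector replicate 1 alone against the IRF7 arrays, so their equal values are 1 check. The replicate block called 9784 genes. Each array's deviations from its group mean correlated best with those of the array of its own number in the other group. The second Icam1 probe did not pass with slide as a fixed block (-0.80, limma adjusted p = 0.0588). Without the filter, 3 probes above background on no array passed, of Vcam1 (-0.37), Jam2 (-0.38) and Ncam1 (-0.37), all with signals of 5.67 to 7.54, and signals that low have no order. Of all calls in that fit 33.0% were higher.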

Other observations

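Some relatives and partners of the adhesion genes were above background on a few arrays of 1 group and were not tested. Jam3, the relative of Jam2, read 91.5 on IRF7 replicate 3 and 6.53 to 15.7 on the other arrays. Gdnf, a ligand of Ncam1, was above background on 2 IRF7 arrays. Its signal, not scaled between arrays, was 32.8 to 49.7 on the IRF7 arrays against 23.7 to 29.3. After scaling the groups overlapped, with IRF7 replicate 2 at -5.35 and base-vector replicate 3 at -5.32. The bound, at least 1.05-fold higher, thus gives next to no size. Gfra1, the gene of the Gdnf co-receptor, read 202 on base-vector replicate 1 and 6.12 to 14.5 on the other arrays. Timp3, an inhibitor of sheddases, was above background on 1 IRF7 array and read 18.5 to 33.3 in the IRF7 cells against 7.67 to 9.56.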
